A study of Rattus norvegicus with 57 samples.

Results

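Kidney cortex from rats given a single 3 mg/kg dose of cisplatin was compared with kidney cortex from saline-treated rats 5 days after the injection. The comparison rests on 10 of the 57 arrays analysed, chosen by their titles: the 5 arrays of 3 mg/kg animals on day 5 and the 5 arrays of control animals on day 5, 1 array per animal. All animals were male Han Wistar rats, strain Crl:WI(Han), 8 weeks old when they received their only intraperitoneal injection, with the compound dissolved in saline and the controls given saline alone, and each rat was housed by itself. The study's design gives 6 animals per group, and the remaining animals were not analysed here. RNA came from tissue enriched in cortex, so every value is an average over all the cells of that piece, and the hour of killing is not in the labels. Replicate numbers name an animal within its group, and the labels do not say whether they link animals across groups. Set beside this comparison are 3 arrays of 1 mg/kg animals on day 5 and the 3 mg/kg and control arrays of days 3 and 8, 5 in each group. The comparison shows which transcripts differed between 3 mg/kg and saline on day 5.

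Cisplatin binds DNA and forms crosslinks between neighbouring bases. Cells of the proximal tubule take it up from the blood through organic cation transporters, and they are the cells it is best known to injure. DNA damage stabilises the transcription factor p53, which switches on genes that hold the cell cycle, limit p53 itself or promote cell death. An injured tubule cell makes KIM-1, which healthy tubules barely express, and more of proteins such as clusterin and osteopontin, and it loses features of its segment. Oxidants and electrophiles free the transcription factor NRF2, which switches on detoxifying and antioxidant enzymes.

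Signals are the authors' linear array intensities, and each gene is represented by 1 probe set. Unless another scale is named, a change is the difference in mean log2(signal + 16) between 3 mg/kg and control animals, with the standard error of a limma fit over all 57 arrays and an adjusted p (Benjamini-Hochberg over 11683 genes), called at 0.05. Per-animal signals run from replicate 1 to replicate 5. The tissue carried proximal tubule transcripts at high signal in both groups: Slc34a1, the main phosphate transporter of that segment, lay between 4115 and 4859 at 3 mg/kg and between 4023 and 4514 in controls. Arrays correlated at 0.987 to 0.992 within the 3 mg/kg group, at 0.988 to 0.991 within controls, and at 0.977 to 0.989 between them. The 3'/5' signal ratio of the actin control probe sets, which is higher when RNA is degraded, was 5.42 ± 0.38 at 3 mg/kg and 5.07 ± 0.39 in controls (SD, n = 5 each; two-sided exact permutation p = 0.19, where the smallest possible p is 0.00794). Adjusted over the 4 quality measures tested, the exact permutation p-values ran from 0.381 to 0.667.

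Of 11683 genes, 1028 were called (8.8%). These were 620 higher at 3 mg/kg (5.31%) and 408 lower (3.49%). Counts of list members below are to be read beside these shares. Most changes were small: 144 of the rises and 47 of the falls reached 0.5 on the log2 scale, and 32 rises and 2 falls reached 1. The 4 genes that rose by 2 or more were Havcr1, Ugt2b7, Spp1 and Cdkn1a. The 2 that fell by at least 1 were Rgn and Sfrp2. Without regard to the call, 1064 genes (9.11%) had no overlap between the 5 treated and the 5 control animals, with 618 higher (5.29%) and 446 lower (3.82%).

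The treated animals did not contribute equally. Replicate 1 of the 3 mg/kg group had the highest value of its group for 366 of the 620 genes that rose, replicate 3 for 125, replicate 5 for 55, replicate 2 for 43 and replicate 4 for 31. Among the 408 genes that fell, replicate 1 was the lowest for 146 and replicate 3 for 88. Leaving out replicate 1 of the 3 mg/kg group cut the calls to 547 (4.68%), 322 higher (2.76%) and 225 lower (1.93%), of which 537 were among the 1028. Leaving out any other of the 10 animals left between 722 and 1096 calls. Replicate 1 had an actin ratio of 5.15, a GAPDH ratio of 1.42 and a median signal of 24.9, none of them at an end of its group. Counts without this animal are given beside each leading gene group. Where a call was lost without one of several animals, each was left out alone.

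Most measured p53 target genes rose, by similar amounts in each treated animal. Of 25 measured members, 14 rose and 1 fell, with a median change of 0.24 against 0.00 over all genes tested. Without replicate 1 of the 3 mg/kg group the counts were 11 and 1. Cdkn1a, which encodes the cyclin-dependent kinase inhibitor p21, had signals of 387, 251, 276, 392 and 249.5 at 3 mg/kg, against 44.5, 38.5, 59.7, 45.5 and 62.5 in controls. Replicates 1 and 4 were the highest, and every treated animal lay far above every control. Ccng1, cyclin G1, a p53 target whose product acts on the p53 and MDM2 pathway, had 2772, 2303, 2146, 2200.4 and 1999 at 3 mg/kg, against 666, 750.1, 637, 628 and 683 in controls. Plk2, a stress-induced polo-like kinase, had 134, 104, 129, 131 and 133 at 3 mg/kg, against 27.6, 24.3, 23.1, 34.0 and 25 in controls, with replicate 2 lower than the other treated animals but still far above every control. The changes were 2.29 ± 0.19 for Cdkn1a (adjusted p = 9.44e-13), 1.73 ± 0.09 for Ccng1 (adjusted p = 9.16e-20) and 1.73 ± 0.14 for Plk2 (adjusted p = 1.07e-13).

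**Figure D1:**
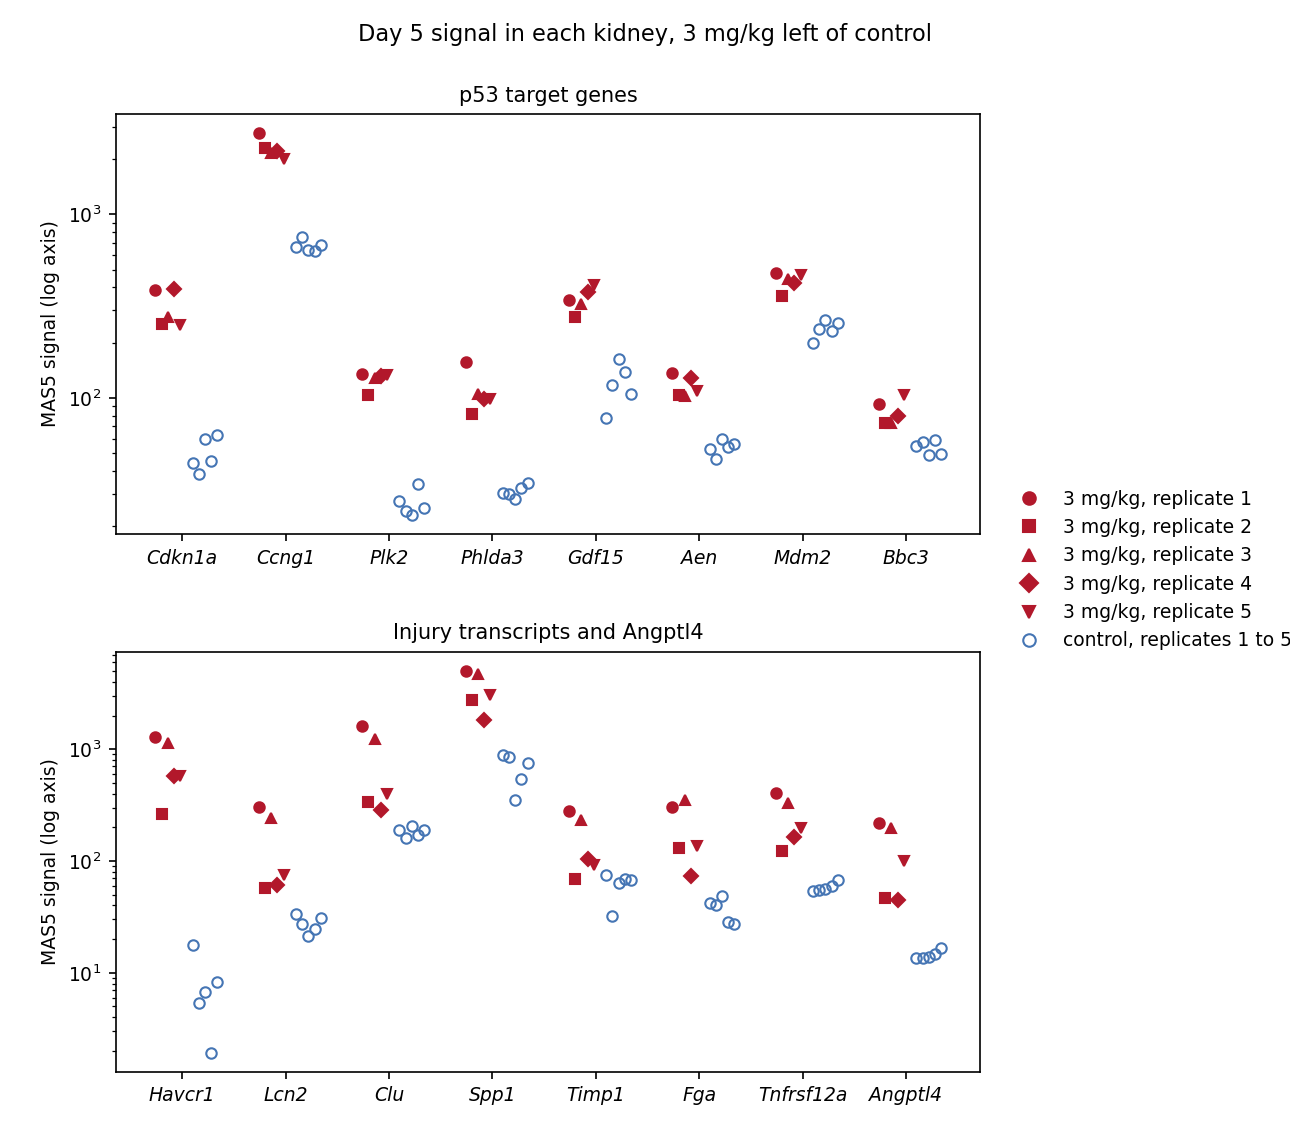
Array signal (log axis) of 16 genes in each of the 10 kidneys, with 3 mg/kg animals left of controls; each point is 1 animal. The p53 targets (top) form tight groups that do not overlap, whereas the injury markers (bottom) spread widely among the 3 mg/kg animals, with replicates 1 and 3 highest for most of them.

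Phlda3, which holds back AKT signalling, had 157, 81.9, 105, 98.6 and 98.9 at 3 mg/kg, against 30.2, 29.8, 28.2, 32.3 and 34.5 in controls. Here replicate 1 stood above the other treated animals, and none overlapped the controls. Gdf15, a secreted stress cytokine, had 339.7, 277, 325, 376 and 409.9 at 3 mg/kg, against 77.7, 117, 162, 139 and 105 in controls. Its controls were spread out and still lay below every treated animal. Aen, a p53-induced nuclease, had 136, 103, 102, 129 and 109 at 3 mg/kg, against 52.9, 46.7, 59.5, 53.9 and 55.9 in controls, a change of 0.91 ± 0.08 (adjusted p = 2.39e-11). Mdm2, the ubiquitin ligase that degrades p53, had 478, 359, 443, 423 and 469 at 3 mg/kg, against 199, 237, 267, 233 and 257 in controls, a change of 0.82 ± 0.08 (adjusted p = 1.39e-10). In all 4 genes the groups were separate.

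Among p53 targets with smaller rises, Bbc3, the proapoptotic PUMA, rose by 0.51 ± 0.09, the epoxide hydrolase Ephx1 by 0.51 ± 0.16, the stress protein gene Gadd45a by 0.47 ± 0.13 and Ei24 by 0.23 ± 0.08. The single member that fell was Sesn1, a sestrin that acts on mTORC1 signalling, with 91.7, 109.5, 103, 144 and 96.8 at 3 mg/kg, against 180.0, 143, 161, 141 and 150.1 in controls. Replicate 4 overlapped the controls, and the change was -0.46 ± 0.10 (adjusted p = 0.00171). A second probe set of Sesn1 gave -0.16 and was not called in limma (adjusted p = 0.384 over every kept probe set). Ephx1 lost its call without 3 mg/kg replicate 1, 4 or 5 or control replicate 1, 2, 4 or 5 (adjusted p up to 0.0848), Gadd45a without 3 mg/kg replicate 5 (adjusted p = 0.0507), and Ei24 without 3 mg/kg replicate 1, 2, 3 or 5 or control replicate 4 or 5 (adjusted p up to 0.161). Among genes that regulate apoptosis, Bbc3 was the only one of 23 that rose (4.35%, against 5.31% of all genes). In the DNA repair list 2 of 28 rose (7.14%, against 5.31% of all genes), and 1 rose without replicate 1 of the 3 mg/kg group. The 2 were Rpa2, a subunit of the single-strand binding protein RPA, at 0.41 ± 0.09 and Ercc1 of nucleotide excision repair at 0.18 ± 0.06. Among 16 CDK inhibitors and cyclins, 4 rose: Cdkn1a, Ccng1, Ccnd3 and Cdkn1c. Cdkn1c, which encodes p57, rose by 0.38 ± 0.11, a call that was lost without 3 mg/kg replicate 1 or 2 or control replicate 2 or 4 (adjusted p up to 0.0653).

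Promoters of 12 of the 14 p53 targets that rose were in the RefSeq table (build GRCr8, 250 bases before to 50 after the start site). The p53 decamer, of which p53 response elements hold copies, was searched on both strands. It was found for 5 of these 12 genes, Cdkn1a, Ccng1, Aen, Gadd45a and Ei24, where a gene counts if any of its promoters matched. Counted the same way, it was found for 7.02% of the 9722 tested genes with a promoter. Of the 33469 single promoters in the table, 7.98% held it. A match describes the letters and is no measure of binding. The 3 promoters below belong to the holders with the largest rises, with the decamer in capitals. The match begins at position -201 in Cdkn1a (chr20:7150682-7150981, + strand), at -232 in Ccng1 (chr10:25684827-25685126, - strand) and at -30 in Aen (chr1:142224283-142224582, + strand).
Cdkn1a: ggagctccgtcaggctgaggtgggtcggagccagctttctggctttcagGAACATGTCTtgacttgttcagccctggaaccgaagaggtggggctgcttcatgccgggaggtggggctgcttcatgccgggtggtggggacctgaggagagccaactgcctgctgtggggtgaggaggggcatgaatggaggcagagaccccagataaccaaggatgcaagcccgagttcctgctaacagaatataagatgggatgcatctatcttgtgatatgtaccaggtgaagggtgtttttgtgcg
Ccng1: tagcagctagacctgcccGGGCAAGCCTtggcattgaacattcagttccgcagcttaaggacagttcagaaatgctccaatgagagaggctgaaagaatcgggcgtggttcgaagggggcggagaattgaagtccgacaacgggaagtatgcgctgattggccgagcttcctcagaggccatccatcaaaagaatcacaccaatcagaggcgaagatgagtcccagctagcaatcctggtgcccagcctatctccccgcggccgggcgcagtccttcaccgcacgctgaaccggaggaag
Aen: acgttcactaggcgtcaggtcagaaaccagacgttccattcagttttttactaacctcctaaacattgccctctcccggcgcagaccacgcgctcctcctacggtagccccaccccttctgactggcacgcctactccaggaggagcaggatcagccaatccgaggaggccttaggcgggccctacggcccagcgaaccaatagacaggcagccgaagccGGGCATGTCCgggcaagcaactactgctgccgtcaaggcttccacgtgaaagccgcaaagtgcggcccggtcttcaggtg

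Markers of tubular injury rose with far more spread among animals. Of 26 measured, 15 rose and 0 fell, with a median of 0.56, and 9 rose without replicate 1 of the 3 mg/kg group. Havcr1, which encodes KIM-1, a receptor of injured proximal tubule cells, had 1275, 265, 1128, 570.1 and 569.7 at 3 mg/kg, against 17.7, 5.41, 6.71, 1.94 and 8.24 in controls. Every treated animal was far above every control, and replicates 1 and 3 were the highest. The control signals lie around or below the offset of 16, so the change of 4.85 ± 0.62 (adjusted p = 3.04e-07) understates the ratio of the signals, which averaged 761 ± 424 at 3 mg/kg and 7.99 ± 5.89 in controls (SD, n = 5 each). In this homogenate, fewer cells of a type and less RNA per cell cannot be told apart.

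Spp1, the secreted phosphoprotein osteopontin, had 5033, 2746, 4737, 1827 and 3066 at 3 mg/kg, against 882, 859, 352, 540.0 and 756 in controls. Clu, the extracellular chaperone clusterin, had 1626, 338, 1233, 286 and 397 at 3 mg/kg, against 189, 161, 203, 169.6 and 191 in controls. Lcn2, the siderophore-binding protein NGAL, had 303, 57.6, 244, 61.4 and 74.9 at 3 mg/kg, against 33.6, 27.5, 21.2, 24.5 and 30.9 in controls. In all 3 genes replicates 1 and 3 were the highest and the lowest treated animal exceeded every control. Fga, the fibrinogen alpha chain, had 304, 132, 354, 73.6 and 135 at 3 mg/kg, against 42.5, 40, 48.7, 28.3 and 27.1 in controls. Tnfrsf12a, the receptor for TWEAK, had 409, 123, 329.7, 163 and 197 at 3 mg/kg, against 53.9, 55.1, 55.6, 60.3 and 67.2 in controls. Replicates 1 and 3 again led, with replicate 3 the higher of the pair for Fga.

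The changes were 2.31 ± 0.29 for Spp1 (adjusted p = 1.62e-07), 1.84 ± 0.28 for Fga (adjusted p = 9.7e-06) and 1.69 ± 0.25 for Tnfrsf12a (adjusted p = 3.9e-06), and 2.16, 1.65 and 1.48 without replicate 1 of the 3 mg/kg group. Clu changed by 1.64 ± 0.38 (adjusted p = 0.00313), and by 1.29 without that animal (adjusted p = 0.0343). Lcn2 changed by 1.63 ± 0.34 (adjusted p = 0.00114), and by 1.32 without it (adjusted p = 0.0153). Timp1, an inhibitor of matrix metalloproteinases, had 283, 69.3, 231, 105 and 92.5 at 3 mg/kg, against 74.7, 32.1, 63.3, 69.4 and 68.0 in controls. Replicate 2 of the treated animals lay within the control range. Its change of 1.01 ± 0.29 (adjusted p = 0.0218) was no longer called without 3 mg/kg replicate 1 or 3 or control replicate 2 (adjusted p up to 0.129), and the 10 arrays of this comparison fitted alone gave adjusted p = 0.0533. The heme-degrading enzyme gene Hmox1 rose by 0.54 ± 0.17, a call lost without 3 mg/kg replicate 1 or 3 or control replicate 1, 2, 3 or 5 (adjusted p up to 0.183), and the fibrinogen beta chain gene Fgb by 0.92 ± 0.26, a call lost without 3 mg/kg replicate 1 or 3 (adjusted p up to 0.0889).

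The SD of log2(signal + 16) among the 3 mg/kg animals measured this spread. Its largest values among called genes were 1.13 for Clu, 1.02 for Lcn2, 0.93 for Angptl4, 0.90 for Ccl20, 0.89 for Havcr1, 0.85 for Fga, 0.79 for Slc34a2 and 0.79 for Timp1. Over the injury markers that rose the median SD was 0.60 in 3 mg/kg animals and 0.15 in controls, against 0.17 in 3 mg/kg animals for the p53 targets that rose.

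**Figure D2:**
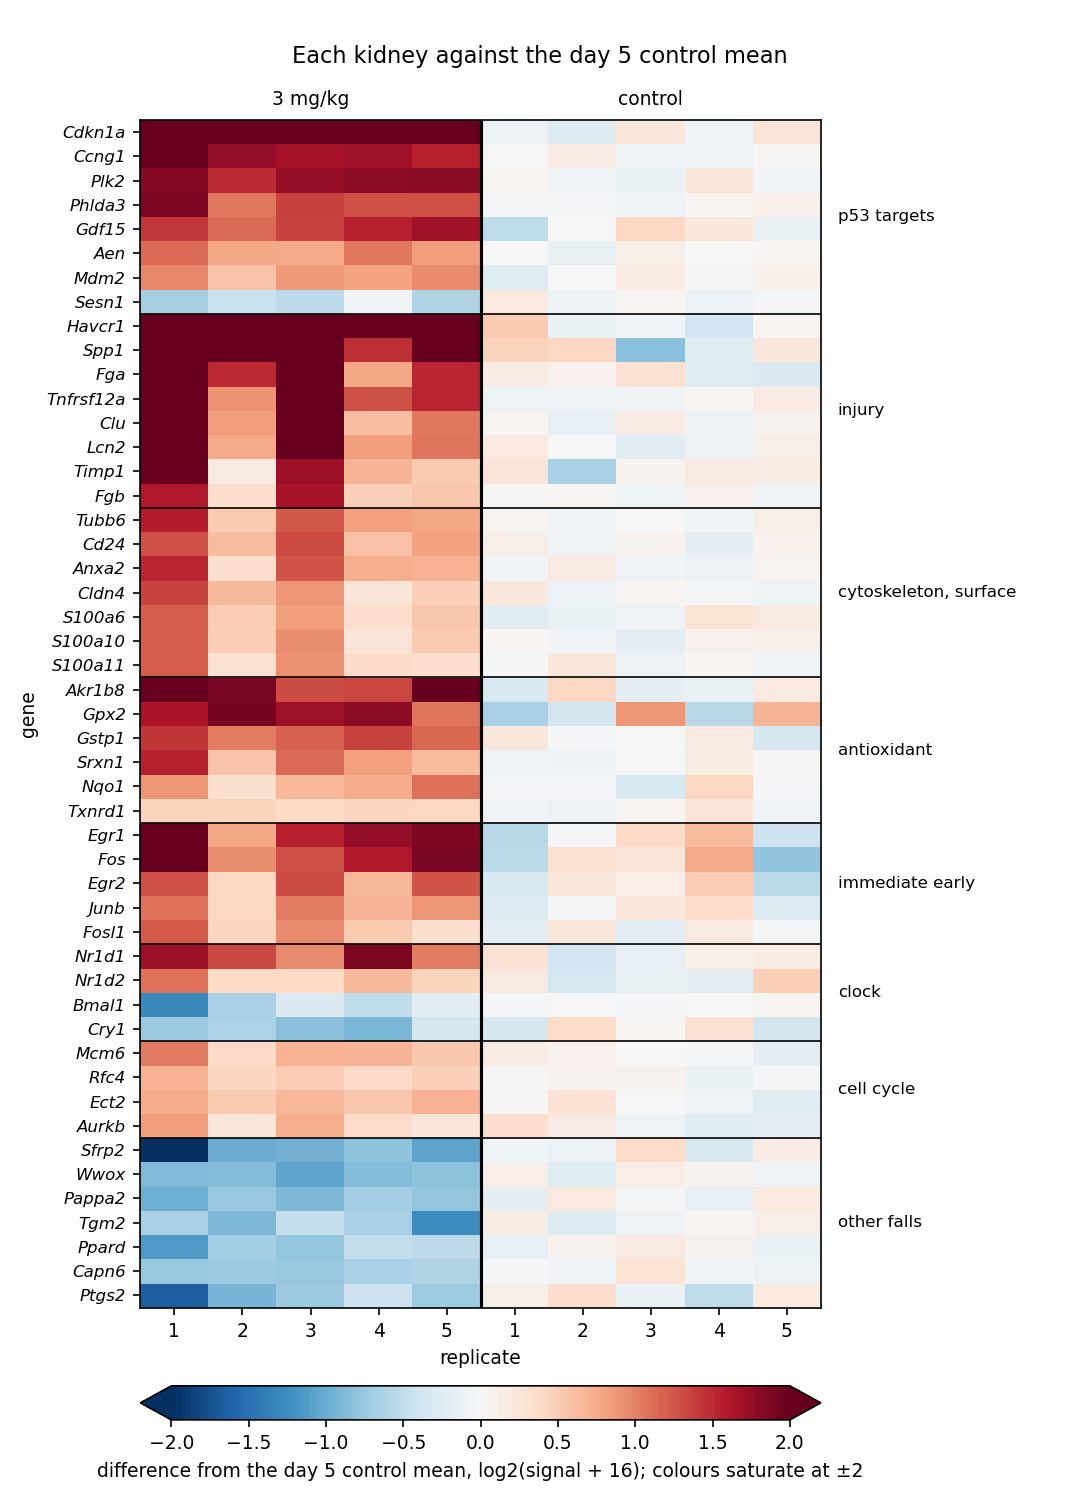
Difference of log2(signal + 16) from the mean of the day 5 controls for 49 genes (rows) in each of the 10 kidneys (columns, 3 mg/kg animals left of controls), with the colour scale ending at differences of 2 in size. The rows of the p53 targets that rose are similarly shaded across the 3 mg/kg animals, whereas Sesn1 overlaps the controls in replicate 4. Most injury and cytoskeleton rows are darkest in replicates 1 and 3.

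In the list of cytoskeleton, keratin and tubular dedifferentiation genes, 16 of 39 rose and 2 fell, with a median of 0.21. Without replicate 1 of the 3 mg/kg group 10 rose and 2 fell. No keratin was called: Krt8, Krt18, Krt19 and Krt20 had adjusted p of 0.345 to 0.532 in limma. Vim, Cd44, Tnfrsf12a, Anxa1, Anxa2, S100a6 and Lgals3 rose in this list and stand in the injury list too, so the 2 counts share them. Cd24, a surface protein carried by tubule cells after injury, had 2651, 1660.3, 2686, 1629 and 1894 at 3 mg/kg, against 1165, 1022, 1132, 944 and 1146 in controls, a change of 0.92 ± 0.11 (adjusted p = 4e-08). Anxa2, annexin A2, had 703, 299, 583, 399 and 389 at 3 mg/kg, against 224, 269, 224, 215 and 244 in controls, a change of 0.91 ± 0.17. Tubb6, a beta-tubulin, had 102, 41.5, 78.0, 54.2 and 52.1 at 3 mg/kg, against 25.4, 21.9, 23.4, 21.5 and 27.1 in controls, a change of 0.99 ± 0.19. None of these 3 overlapped, and replicates 1 and 3 were the 2 highest animals for each.

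The S100 genes S100a6, S100a10 and S100a11, which encode small calcium-binding proteins, rose by 0.69 ± 0.20, 0.68 ± 0.16 and 0.63 ± 0.14. The hyaluronan receptor Cd44 rose by 0.58 ± 0.15, the mesenchymal intermediate filament gene Vim by 0.44 ± 0.12, galectin-3 (Lgals3) by 0.60 ± 0.14, and the tight junction genes Cldn4 and Cldn7 by 0.72 ± 0.22 and 0.46 ± 0.11. The calls of Cd44 and Vim were lost without replicate 1 of the 3 mg/kg group (adjusted p = 0.0608 and 0.102). Those of S100a6 were lost without 3 mg/kg replicate 1 or 3 or control replicate 1, 2 or 3 (adjusted p up to 0.116), and those of Cldn4 without 3 mg/kg replicate 1 or 3 or control replicate 2, 4 or 5 (adjusted p up to 0.145). The 2 members that fell were Cldn2, the claudin of the leaky proximal tubule junction, and Cdh2, N-cadherin, the main cadherin of the proximal tubule. Cldn2 had 581, 562, 567, 682 and 571 at 3 mg/kg, against 677, 689.8, 716, 771 and 774 in controls, with replicate 4 of the treated animals inside the control range (change -0.29 ± 0.08). Cdh2 had 179.9, 162, 177, 170.4 and 179 at 3 mg/kg, against 181, 238, 230.0, 244 and 210.2 in controls, with every treated signal below the lowest control (change -0.31 ± 0.09). Its call was lost without control replicate 2 or 4 (adjusted p up to 0.0637).

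Among genes of the NRF2 antioxidant programme, 11 of 28 rose and 0 fell, with a median of 0.24, and 8 rose without replicate 1 of the 3 mg/kg group. The counts of several lists share some of these 11. Hmox1 also rose in the injury list, Ephx1 in the p53 list, Abcc4 among ABC efflux pumps and Ugdh in the glucuronidation list. Here replicates 1 and 3 were not regularly the highest. Gpx2, a glutathione peroxidase, had 254, 313, 267, 286 and 166 at 3 mg/kg, against 39.3, 51.5, 144, 43.4 and 123 in controls. Its controls split into 3 low and 2 higher animals, and all lay under the treated ones. Akr1b8, an aldo-keto reductase, had 1192, 859, 563, 576 and 944 at 3 mg/kg, against 173, 298, 191, 199 and 253 in controls, without overlap. Nqo1, a quinone reductase, had 114, 71.5, 95.7, 101.1 and 135 at 3 mg/kg, against 52.8, 52.2, 40.6, 77.9 and 52.6 in controls, where replicate 2 of the treated animals fell below the highest control. Txnrd1, thioredoxin reductase, had 812, 813, 784, 798 and 796 at 3 mg/kg, against 559.5, 542, 609.6, 700.3 and 556 in controls, so the treated animals lay within a narrow band above every control. A second probe set of Txnrd1 gave 0.19 and was not called in limma (adjusted p = 0.348 over every kept probe set).

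The changes were 1.62 ± 0.39 for Gpx2 (adjusted p = 0.00523), 1.79 ± 0.55 for Akr1b8 (adjusted p = 0.0316), 0.74 ± 0.16 for Nqo1 (adjusted p = 0.00133) and 0.43 ± 0.07 for Txnrd1 (adjusted p = 0.000116). The sulfiredoxin gene Srxn1 rose by 0.94 ± 0.21, the aflatoxin-aldehyde reductase Akr7a3 by 0.47 ± 0.08, UDP-glucose dehydrogenase (Ugdh) by 0.26 ± 0.07 and Nfe2l2, which encodes NRF2 itself, by 0.32 ± 0.09. Akr1b8 lost its call without 3 mg/kg replicate 1, 2 or 5 or control replicate 1, 3 or 4 (adjusted p up to 0.0948), and Nfe2l2 without 3 mg/kg replicate 3 or control replicate 1 (adjusted p up to 0.055). Gclc, the catalytic subunit of the rate-limiting enzyme of glutathione synthesis, did not pass, with a change of -0.03 ± 0.20 (adjusted p = 0.959) that turned to 0.02 without replicate 1 of the 3 mg/kg group and also without control replicate 5.

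The core letters of the antioxidant response element, TGACNNNGC, were searched on both strands. Of the 11 NRF2 genes that rose, 10 had a promoter in the table, and the letters were found for 5 of these: Txnrd1, Ephx1, Gpx2, Ugdh and Nfe2l2. A gene counts if any of its promoters matched, and Txnrd1 and Ephx1 had 2 promoters each. Counted the same way, the letters were found for 15.5% of the 9722 tested genes with a promoter. Of the 33469 single promoters, 12.1% held them. The promoter of Gpx2, the holder with the largest rise, is shown with the match in capitals. It lies at chr6:101229984-101230283 (GRCr8, RefSeq, - strand), and the match begins at position -13.
Gpx2: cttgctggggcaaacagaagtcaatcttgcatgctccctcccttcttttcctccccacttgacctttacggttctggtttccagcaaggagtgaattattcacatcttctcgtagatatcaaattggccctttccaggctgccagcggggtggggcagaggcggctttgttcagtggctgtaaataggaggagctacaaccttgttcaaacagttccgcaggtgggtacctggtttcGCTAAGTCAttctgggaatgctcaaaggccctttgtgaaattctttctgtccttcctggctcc

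Other detoxifying genes were mixed. In the glutathione S-transferase list 3 of 19 rose. Gstp1, the pi-class enzyme, had 2939.9, 2203, 2448, 2774 and 2396 at 3 mg/kg, against 1264, 1061, 1067, 1205 and 840.1 in controls, a change of 1.22 ± 0.17 (adjusted p = 8.39e-07) without overlap. In the nucleotide sugar and glucuronidation list 4 of 22 rose and 2 fell (1 fell without replicate 1 of the 3 mg/kg group). Ugt2b7, a glucuronosyltransferase, had 667, 385, 803, 349.8 and 406 at 3 mg/kg, against 88.3, 22.9, 92.4, 193 and 50.3 in controls. Its controls covered a wide range, all below the lowest treated animal, and the change was 2.49 ± 0.53 (adjusted p = 0.0015). The carboxylesterase gene Ces2c rose by 0.92 ± 0.12, whereas Ces1e fell by 0.84 ± 0.19, with 16.7, 36.4, 31.1, 32.5 and 30.7 at 3 mg/kg, against 53.6, 62.1, 73.7, 77.4 and 58.7 in controls. Replicate 1 was the lowest, and the groups did not overlap.

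Among metal-handling genes 2 of 13 rose. The metallothionein gene Mt2A had 3627, 3674, 4099, 3852 and 3794 at 3 mg/kg, against 2637, 2512, 2655, 2465 and 3523 in controls, where control replicate 5 came close to the treated animals (change 0.47 ± 0.11), and the metal transporter Slc39a14 rose by 0.46 ± 0.12, but with its 2 probe sets averaged by 0.21 without a call (adjusted p = 0.155), the second set giving -0.04. Of 11 ABC efflux pumps 2 rose, Abcc4 by 0.56 ± 0.10 and Abcc1 by 0.32 ± 0.10, the second without a call once 3 mg/kg replicate 1, 2 or 3 or control replicate 4 or 5 was left out (adjusted p up to 0.102). Of 18 cisplatin uptake and organic ion transporters none passed in limma, 4 had an unadjusted p under 0.05, and their median was -0.18. In the fit of these 10 arrays alone 4 passed, 3 of them lower. Slc22a2, the organic cation transporter OCT2, had 555, 599, 633, 633 and 684 at 3 mg/kg, against 632, 689.6, 718, 833 and 820.2 in controls, so the groups overlapped (change -0.24 ± 0.20, adjusted p = 0.49). The organic anion transporters Slco1a1 and Slco1a6 had every treated animal below every control, at 135, 269.7, 203, 245 and 242 at 3 mg/kg, against 329, 307, 317, 285 and 362 in controls, for Slco1a1. Their changes of -0.55 ± 0.27 and -0.60 ± 0.43 missed the threshold in the fit of all arrays (adjusted p = 0.211 and 0.425) and passed it in the fit of these 10 arrays alone (adjusted p = 0.0271 and 0.00516).

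**Figure D3:**
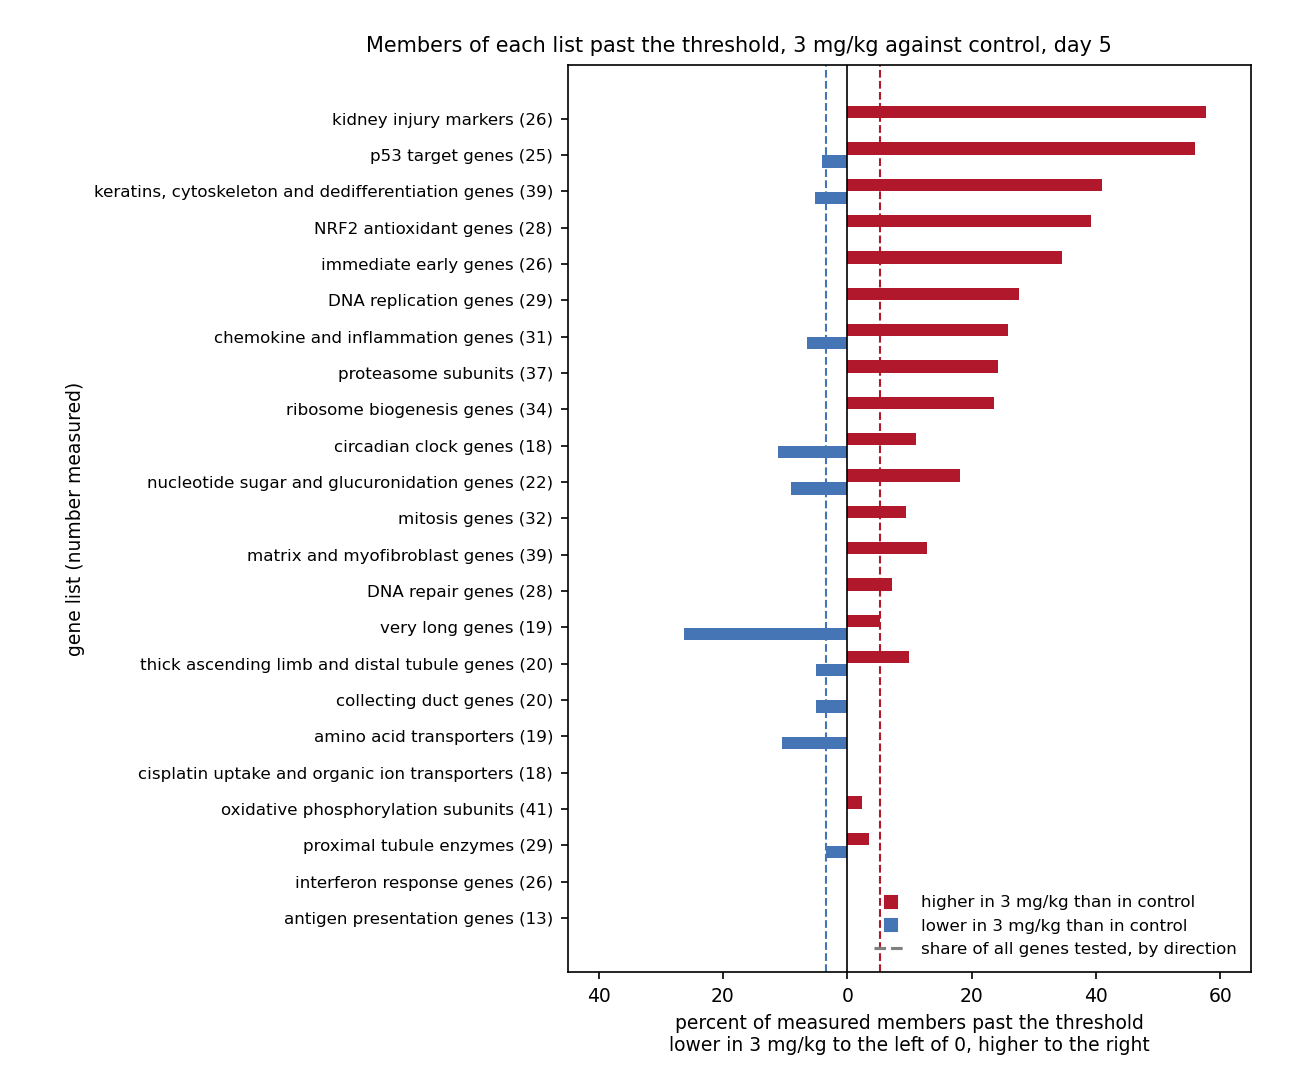
Percent of the measured members of 23 gene lists called higher or lower at 3 mg/kg than in controls on day 5, with dashed lines at 5.31% higher and 3.49% lower, the shares over all 11683 genes. The injury, p53, dedifferentiation and NRF2 lists have the largest shares of higher members.

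Immediate early genes, which respond to growth factors and stress within minutes, were higher: 9 of 26 rose and 0 fell, with a median of 0.28, and 5 rose without replicate 1 of the 3 mg/kg group. Egr1 had 1463, 593, 1029, 1189 and 1282 at 3 mg/kg, against 225, 332, 446, 535 and 249.6 in controls, and Fos had 423, 178, 229.6, 291 and 364 at 3 mg/kg, against 54.0, 109, 105, 156 and 42.8 in controls. In both, every treated animal exceeded every control and replicate 2 was the lowest of the treated. The changes were 1.60 ± 0.35 for Egr1 (adjusted p = 0.00182) and 1.57 ± 0.40 for Fos (adjusted p = 0.00806). Junb rose by 0.81 ± 0.15, Egr2 by 0.99 ± 0.28, Fosl1 by 0.69 ± 0.12 and Myc by 0.66 ± 0.22. The signals of Fosl1 were dim, at most 33.9 at 3 mg/kg and 8.73 in controls. Egr2 lost its call without 3 mg/kg replicate 1 or 3 or control replicate 1 or 5 (adjusted p up to 0.0725) and Myc without 3 mg/kg replicate 1, 3 or 5 or control replicate 1, 2 or 3 (adjusted p up to 0.151).

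Of 18 circadian clock genes 2 rose and 2 fell. Nr1d1, which encodes the clock repressor REV-ERB alpha, had 141, 104, 76.9, 163 and 81.7 at 3 mg/kg, against 42.7, 21.2, 27.2, 35.8 and 37.3 in controls, a change of 1.38 ± 0.24 (adjusted p = 0.000157). Bmal1, the clock activator that REV-ERB proteins repress, had 27.5, 51.3, 70.2, 58.2 and 75.3 at 3 mg/kg, against 88.0, 90.8, 87.9, 89.2 and 93.5 in controls, a change of -0.59 ± 0.15 (adjusted p = 0.00829). The groups were separate for both genes, and replicate 1 was the lowest for Bmal1. The other members called were Nr1d2 at 0.60 ± 0.18 and the repressor Cry1 at -0.69 ± 0.20. Only Nr1d1 kept its call without replicate 1 of the 3 mg/kg group, where Bmal1 gave -0.42 (adjusted p = 0.0801). Nr1d2 also lost its call without 3 mg/kg replicate 1 or control replicate 2, 3 or 4 (adjusted p up to 0.127), and Cry1 without 3 mg/kg replicate 1 or 3 or control replicate 2 or 4 (adjusted p up to 0.0755). The hour of killing of each animal is not in the labels, and its part in these differences was not tested.

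Of 24 EGF receptor ligands, receptors and related factors, 4 rose and 1 fell (20.8% called, against 8.8% over all genes tested). Areg, the EGF receptor ligand amphiregulin, had 91.3, 27.2, 66.7, 53.1 and 46.0 at 3 mg/kg, against 14.1, 16.4, 27.3, 20.9 and 21.8 in controls, with replicate 2 of the treated animals level with the highest control (change 0.96 ± 0.21, adjusted p = 0.00175). Nrg1, a ligand of ERBB receptors, had 108, 60.5, 84.2, 75.3 and 79.6 at 3 mg/kg, against 43.3, 41.9, 35.3, 30.3 and 30.1 in controls, without overlap (change 0.89 ± 0.19). Igfbp1, a binding protein of insulin-like growth factors, had 1611, 844, 1559, 869 and 1225 at 3 mg/kg, against 380.1, 426, 449.5, 402 and 457 in controls. Its treated animals all lay well above the controls (change 1.45 ± 0.22, adjusted p = 9.02e-06). Erbb3, a receptor for neuregulins, fell by 0.33 ± 0.09, a call lost without control replicate 1 or 3 (adjusted p up to 0.074).

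In the chemokine and inflammation list 8 of 31 rose and 2 fell, and 4 rose and 0 fell without replicate 1 of the 3 mg/kg group. Ccl20, a chemoattractant for cells carrying CCR6, had 388, 108, 343, 83.1 and 187 at 3 mg/kg, against 47.9, 68.4, 87.6, 41.4 and 48.9 in controls. Replicates 1 and 3 were the highest, and replicate 4 lay within the control range. Ccl2, a monocyte chemoattractant, had 299, 69.1, 141, 78.6 and 87.5 at 3 mg/kg, against 43.7, 69.7, 68.9, 50.6 and 33.0 in controls, with replicate 1 far above the others: the change of 0.97 ± 0.24 (adjusted p = 0.0055) was 0.66 without it (adjusted p = 0.0649). Cebpd, an acute phase transcription factor, had 162, 93.7, 152, 118 and 175 at 3 mg/kg, against 53.3, 45.8, 51.6, 53.1 and 111 in controls, with control replicate 5 apart from the other controls and above the lowest treated animal. The changes were 1.49 ± 0.30 for Ccl20 (adjusted p = 0.00091), 1.01 ± 0.21 for Cebpd (adjusted p = 0.00111), 0.63 ± 0.14 for the adhesion molecule Icam1 and 0.69 ± 0.17 for the chemokine Cxcl10.

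Ptgs2, cyclooxygenase 2, which the cortex expresses near the macula densa, moved the other way, with 25.9, 52.7, 62.6, 81.7 and 63.5 at 3 mg/kg, against 126, 149.7, 103, 75.9 and 133 in controls, a change of -0.89 ± 0.24 (adjusted p = 0.0123). Replicate 4 overlapped the controls, and the call was lost without replicate 1 of the 3 mg/kg group (adjusted p = 0.0815). Csf1, a growth factor of macrophages, fell by 0.34 ± 0.11, a call lost without 3 mg/kg replicate 1, 2, 3 or 5 or control replicate 1, 3 or 5 (adjusted p up to 0.113) and with its probe sets averaged (-0.19, adjusted p = 0.219). Of 14 macrophage and myeloid markers none passed in limma (2 at an unadjusted p under 0.05), with a median of 0.12 and summed signals of 2293 to 3069 at 3 mg/kg and 2098 to 2712 in controls. The part of such cells in the chemokine values was not tested. In the interferon response list 0 of 26 passed in limma (3 at an unadjusted p under 0.05, 2 in the fit of these 10 arrays alone) and in the antigen presentation list 0 of 13 (1 at an unadjusted p under 0.05), with medians of 0.04 and -0.05. In the complement list 1 of 13 rose (7.69%, against 5.31% of all genes), C1r at 0.36 ± 0.10, and 0 rose without replicate 1 of the 3 mg/kg group.

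Genes of DNA replication were higher: 8 of 29 rose and 0 fell, with a median of 0.24, and 3 rose without replicate 1 of the 3 mg/kg group. Mcm6, a subunit of the replicative helicase, had 108, 62.7, 82.4, 81.5 and 71.6 at 3 mg/kg, against 51.0, 48.5, 44.3, 43.3 and 36.6 in controls, a change of 0.67 ± 0.15 (adjusted p = 0.00316). Rfc4, a subunit of the clamp loader, had 129, 104, 111, 100.3 and 109 at 3 mg/kg, against 74.6, 78.0, 78.3, 65.7 and 70.9 in controls, a change of 0.50 ± 0.10 (adjusted p = 0.000504). Neither gene overlapped between the groups, and replicate 1 was the highest for both. The licensing factor gene Cdt1 rose by 0.46 ± 0.12, a call lost without replicate 1 of the 3 mg/kg group (adjusted p = 0.0583). Mcm7 rose by 0.43 ± 0.13, a call lost without 3 mg/kg replicate 1, 3 or 5 or control replicate 1 or 3 (adjusted p up to 0.0941). The sliding clamp gene Pcna rose by 0.27 ± 0.08.

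In the mitosis list 3 of 32 rose, Ect2 by 0.63 ± 0.20, Aurkb by 0.48 ± 0.15 and Plk4 by 0.43 ± 0.13, and none of the 32 did without replicate 1 of the 3 mg/kg group. Mki67, which encodes the proliferation marker Ki-67, had 83.2, 62.2, 72.8, 72.3 and 77.2 at 3 mg/kg, against 44.2, 61.9, 54.6, 40.9 and 35.3 in controls. Each treated animal was above every control, the change was 0.51 ± 0.18 (adjusted p = 0.061), and the fit of these 10 arrays alone gave adjusted p = 0.0124. The lowest treated and highest control signals were close, at 62.2 and 61.9. In the ribosome biogenesis list 8 of 34 rose (4 without replicate 1 of the 3 mg/kg group), among them Utp20 by 0.43 ± 0.11, and in the proteasome list 9 of 37 (3 without that animal), among them the immunoproteasome subunit Psmb10 by 0.38 ± 0.12 and the activator subunit Psme1 by 0.27 ± 0.08. Ect2 lost its call without 3 mg/kg replicate 1, 3 or 5 or control replicate 1, 3, 4 or 5 (adjusted p up to 0.102), Aurkb without 3 mg/kg replicate 1 or 3 or control replicate 3, 4 or 5 (adjusted p up to 0.128), Plk4 without 3 mg/kg replicate 1 or 3 or control replicate 3 or 5 (adjusted p up to 0.118), Psmb10 without 3 mg/kg replicate 1 or 3 or control replicate 3 or 5 (adjusted p up to 0.167) and Psme1 without 3 mg/kg replicate 1 or 3 or control replicate 1 (adjusted p up to 0.0592).

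Metabolic, tubule enzyme, stress, lysosomal and iron lists had 0 to 11.8% of their members called, against 8.8% over all genes tested. Of 35 genes of fatty acid oxidation and PPAR signalling, 3 rose and 1 fell. Angptl4, an inhibitor of lipoprotein lipase, had 218, 46.7, 198, 45.0 and 99.5 at 3 mg/kg, against 13.5, 13.4, 13.8, 14.7 and 16.5 in controls. Replicates 1 and 3 again led, and all treated animals were above the controls (change 1.95 ± 0.35, adjusted p = 0.00016). Ppard, the nuclear receptor PPAR delta, had 56.4, 83.6, 77.5, 97.0 and 95.2 at 3 mg/kg, against 126, 150.2, 164, 151 and 128 in controls, a change of -0.72 ± 0.11 (adjusted p = 6.43e-06) without overlap and with replicate 1 the lowest. In the lists of oxidative phosphorylation subunits, proximal tubule enzymes and brush border proteins, 1 of 41, 1 of 29 and 0 of 18 rose and 0, 1 and 1 fell. The cholesterol synthesis list had 0 of 20 members called in limma, 4 at an unadjusted p under 0.05, and a median of -0.12. In the fit of these 10 arrays alone 4 of them passed, all lower. Of 30 genes of ER stress and ATF4, 1 rose, Asns (asparagine synthetase) by 0.44 ± 0.09, and 1 fell, the transporter subunit Slc3a2 at -0.19 ± 0.06. Of 28 lysosomal genes 2 rose, led by the protease Ctsd at 0.74 ± 0.10 (adjusted p = 5.57e-07). Of 20 heat shock and chaperone genes 2 rose, the chaperonin subunits Cct3 at 0.30 ± 0.06 and Cct5 at 0.36 ± 0.05. Of 17 iron genes 2 rose, Lcn2 and Hmox1, both described above. Without replicate 1 of the 3 mg/kg group 1 lysosomal and 1 iron gene rose, and 0 oxidative phosphorylation subunits rose and 0 brush border and 0 ER stress genes fell.

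Most markers of the distal nephron did not pass the fit of all arrays, although some were separate between the groups. Calb1, the calcium-binding protein of the distal convoluted and connecting tubule, had 1946, 1958, 1907, 2309 and 2177 at 3 mg/kg, against 2910.2, 3035, 3073, 2654 and 2961 in controls. Every treated animal lay below every control, and the change was -0.51 ± 0.16 (adjusted p = 0.0333). Egf, made in the thick ascending limb and distal convoluted tubule, had 1704, 2348, 1679, 2385 and 2313 at 3 mg/kg, against 2730.0, 2898, 3205, 2747 and 2945 in controls, with replicates 1 and 3 the lowest. Slc12a1, the salt transporter of the thick ascending limb, had 1624, 1326, 1431, 1522 and 1451 at 3 mg/kg, against 1942, 1799.5, 2047, 1986 and 2259 in controls. Neither of the 2 overlapped between the groups, with changes of -0.49 ± 0.36 and -0.44 ± 0.41. Their adjusted p was 0.439 and 0.559 in the fit of all arrays, whose error takes in the spread of the other groups, and 0.00919 and 0.00149 in the fit of these 10 arrays alone. Umod, uromodulin, overlapped, with 2792, 3201, 2855, 2929 and 2960.1 at 3 mg/kg, against 3104, 3047, 3226, 2999.6 and 3201 in controls (change -0.08 ± 0.52, adjusted p = 0.95). Calb1 lost its call without 3 mg/kg replicate 1, 2 or 3 or control replicate 1, 2, 3 or 5 (adjusted p up to 0.0828).

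In the thick ascending limb and distal tubule list as a whole 2 of 20 rose and 1 fell. Ptger3, a prostaglandin E2 receptor, had 385, 249.9, 231, 236 and 321 at 3 mg/kg, against 189, 203, 154, 167 and 176 in controls, and the claudin gene Cldn14 had 25.3, 12.8, 14.3, 14.2 and 13.8 at 3 mg/kg, against 8.85, 5.04, 3.08, 3.23 and 4.39 in controls. Both were separate between the groups and highest in replicate 1, and both calls were lost without it (adjusted p = 0.0801 and 0.0582). The changes were 0.61 ± 0.17 for Ptger3 and 0.61 ± 0.16 for Cldn14, whose signals are near or below the offset and whose call was also lost without the offset (adjusted p = 0.124). With its 2 probe sets averaged, Ptger3 had 0.36 and no call (adjusted p = 0.0694). In the collecting duct list 1 of 20 fell, the proton pump subunit Atp6v1b1 at -0.30 ± 0.09, a call lost without 3 mg/kg replicate 1, 3 or 5 or control replicate 3 or 4 (adjusted p up to 0.125). Aqp2, the water channel of principal cells, had a change of 0.11 ± 0.23 (adjusted p = 0.821).

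Transporters and receptors outside these segments included single large changes. Among 20 glucose and phosphate transporters 2 rose and 1 fell. Slc34a2, a phosphate transporter better known from lung and intestine, had 383, 107, 373, 128 and 175 at 3 mg/kg, against 53.8, 65.2, 52.5, 52.6 and 50.6 in controls, a change of 1.64 ± 0.39 (adjusted p = 0.00398), with replicates 1 and 3 highest and no overlap. Slc20a1 rose by 0.40 ± 0.10, and the bicarbonate transporter Slc4a4 had -0.35 ± 0.09. Among 19 amino acid transporters 2 fell, Slc43a2 by 0.36 ± 0.09 and Slc3a2, and 1 fell without replicate 1 of the 3 mg/kg group. Of 9 renin-angiotensin genes 2 fell, both angiotensin II type 1 receptors. Agtr1a had 385, 441, 414, 491 and 428 at 3 mg/kg, against 551, 586, 598, 562 and 556 in controls, and Agtr1b had 20, 21.8, 28.2, 18.9 and 16.8 at 3 mg/kg, against 33.3, 32.0, 47.4, 36.7 and 39.3 in controls. Neither overlapped, and the changes were -0.39 ± 0.11 for Agtr1a, whose call was lost without replicate 1 of the 3 mg/kg group (adjusted p = 0.0585), and -0.53 ± 0.13 for Agtr1b (adjusted p = 0.00452).

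Further rises without overlap were in genes of several roles. Rasd1, a small GTPase induced by glucocorticoids, had 143, 60.1, 129, 77.0 and 112 at 3 mg/kg, against 19.6, 12.2, 19.1, 29.1 and 47.4 in controls, a change of 1.54 ± 0.21 (adjusted p = 7.43e-07). Olr1, a receptor for oxidised low-density lipoprotein, had 55.5, 23.8, 47.5, 25.6 and 32.1 at 3 mg/kg, against 14.2, 7.5, 14.1, 9.91 and 11.2 in controls, a change of 0.92 ± 0.16. Tagln, transgelin of smooth muscle and myofibroblasts, had 244, 258, 193, 207 and 281 at 3 mg/kg, against 81.2, 77.2, 115, 124 and 163 in controls, a change of 1.01 ± 0.22 (adjusted p = 0.00186). All 3 genes were separate between the groups. Tagln was one of 5 risers among 39 matrix and myofibroblast genes (2 without replicate 1 of the 3 mg/kg group), beside Timp1, the matrix protein genes Tnc at 0.56 ± 0.18 and Bgn at 0.46 ± 0.15, and the metalloproteinase Mmp14 at 0.45 ± 0.10. The rise of Tnc was lost without 3 mg/kg replicate 1, 2 or 5 or control replicate 2, 4 or 5 (adjusted p up to 0.175). Col1a1, type I collagen, had a change of -0.21 ± 0.15 (adjusted p = 0.424). In the acute phase and coagulation list 2 of 19 rose (10.5%, against 5.31% of all genes), Fga and Fgb, and 1 without replicate 1 of the 3 mg/kg group.

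The genes that fell were fewer and their changes smaller. Sfrp2, a secreted Wnt antagonist, had 51.8, 124, 127, 142 and 117 at 3 mg/kg, against 246, 238, 343, 206 and 290.3 in controls. All treated animals were below all controls, replicate 1 by the widest margin (change -1.17 ± 0.27, adjusted p = 0.00278). In the Wnt list 1 of 22 rose, Tcf7 at 0.31 ± 0.10, and 2 fell, Sfrp2 and Wnt2b at -0.26 ± 0.07, of which 0 rose and 1 fell without replicate 1 of the 3 mg/kg group. Rgn, regucalcin, had 471, 343, 333, 683 and 289 at 3 mg/kg, against 887, 553, 1102, 1257 and 1258 in controls, a change of -1.23 ± 0.37 (adjusted p = 0.0272). Treated replicate 4 and control replicate 2 overlapped, and the call was lost without 3 mg/kg replicate 2, 3 or 5 or control replicate 3, 4 or 5 (adjusted p up to 0.0714). Nrep, a neuronal regeneration protein, had 381, 499.6, 718, 876 and 493.2 at 3 mg/kg, against 969, 947, 1452, 884 and 912 in controls, with replicate 4 just below the lowest control (change -0.82 ± 0.21). Its call was lost without 3 mg/kg replicate 1 or control replicate 3 (adjusted p up to 0.0641).

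Tgm2, transglutaminase 2, had 827, 693, 928, 822 and 534 at 3 mg/kg, against 1447, 1091, 1256, 1331 and 1411 in controls, a change of -0.79 ± 0.15 (adjusted p = 0.000293). C1qtnf3, a secreted member of the C1q and TNF family, had 165, 148, 134, 166 and 147 at 3 mg/kg, against 261, 234, 238, 239 and 286 in controls, a change of -0.67 ± 0.12 (adjusted p = 0.00016). Epha4, an ephrin receptor, had 41.7, 42.6, 48.5, 51.6 and 43.4 at 3 mg/kg, against 82.2, 86.0, 105, 71.3 and 70.3 in controls, a change of -0.68 ± 0.15. None of these overlapped, and replicate 1 was not regularly the lowest. Chmp2b, a subunit of the membrane-remodelling ESCRT-III complex, had 159, 179, 155, 156 and 157 at 3 mg/kg, against 236, 245, 245, 259.5 and 295 in controls, a change of -0.61 ± 0.11 (adjusted p = 0.00018). Capn6, a calpain without protease activity, had 18.6, 19.3, 18.4, 21.3 and 22.7 at 3 mg/kg, against 41.6, 40.2, 54.5, 39.8 and 37.7 in controls, a change of -0.70 ± 0.15. In both, the treated animals formed a narrow group under the controls of day 5. Mean control signals of Chmp2b were 152 on day 3 and 188 on day 8, below every control of day 5. The part of this difference among controls in its change was not tested.

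Several genes that fell span long stretches of the genome. Wwox, an oxidoreductase gene at a common fragile site that spans 931 kb in GRCr8, had 16.1, 16.5, 12.4, 16.2 and 17.4 at 3 mg/kg, against 48.4, 34.0, 48.4, 46.0 and 39.4 in controls, a change of -0.90 ± 0.11 (adjusted p = 2.35e-07). The treated animals lay close together around the offset, far below all controls. A second probe set of Wwox gave 0.04, and the mean of both gave -0.43, still called. Immp2l (899.7 kb), a mitochondrial peptidase subunit, fell by 0.68 ± 0.18, Dpyd (866 kb), which breaks down pyrimidines, by 0.51 ± 0.12, Plcl1 (337 kb) by 0.64 ± 0.12, Pappa2 (276 kb), a protease of IGF-binding proteins, by 0.82 ± 0.12, and Epb41l3 (204 kb), a membrane skeleton protein, by 0.63 ± 0.11. In a list of 19 very long genes 5 fell and 1 rose. The fallers were Wwox, Immp2l, Dpyd, Ppard and Nbea, although Ppard spans only 65.2 kb, and the riser was Zbtb20 (739 kb, change 0.31 ± 0.08). Nbea lost its call without 3 mg/kg replicate 1, 2, 3, 4 or 5 or control replicate 1, 2, 3 or 5 (adjusted p up to 0.139). Nrg1, at 1053 kb the longest gene named, rose.

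Over the 11675 tested genes with a span in the RefSeq table, the share called higher was 8.54% for the 2975 genes of up to 10 kb. It was 1.52% for the 395 genes of 200 to 400 kb and 3.03% for the 165 genes of over 400 kb. The share called lower was 1.82% in the shortest class and 10.3% in the longest. Between them, the shares called lower were 2.44%, 3.99%, 4.6%, 6.32% and 6.58% for classes ending at 25, 50, 100, 200 and 400 kb. The median change moved from 0.04 in the shortest to -0.07 in the longest class, and without replicate 1 of the 3 mg/kg group from 0.03 to -0.07. At 1 mg/kg on day 5 the class medians lay between -0.01 and 0.01. At 3 mg/kg on day 3 they ran from 0.07 in the shortest class to -0.07 for 200 to 400 kb and -0.05 in the longest. These are counts across genes, which are not independent replicates. The median control signal was also lower in the longest class, at 49.9, against 94.0 in the shortest, and the part of signal level in the trend was not tested.

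**Figure D4:**
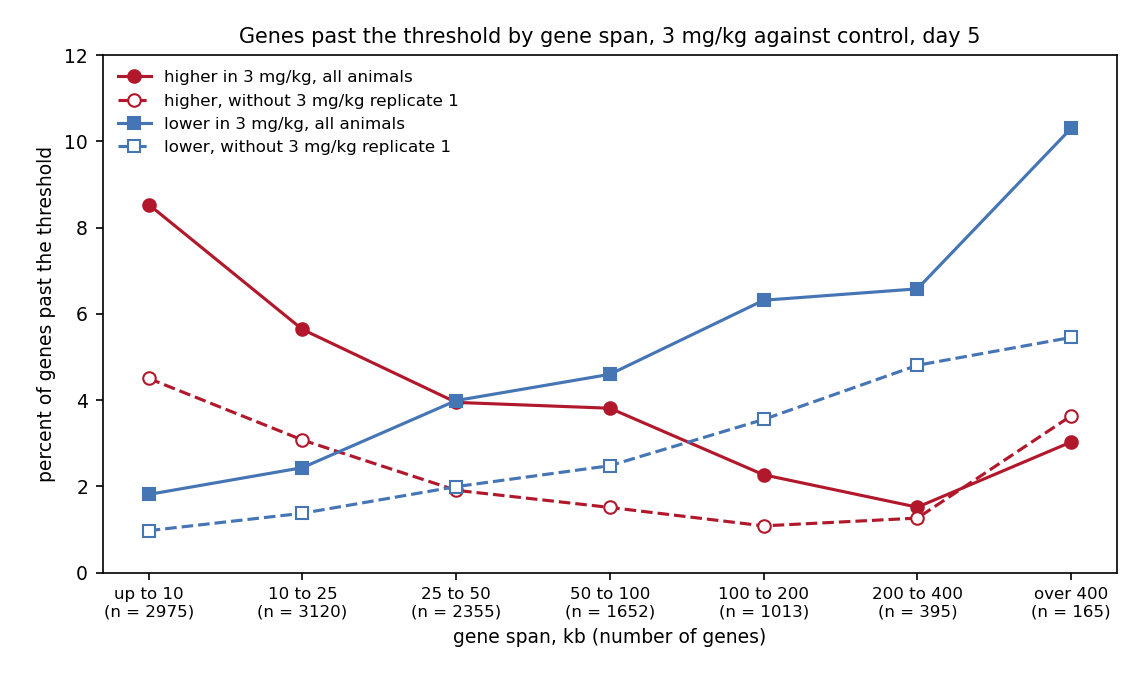
Percent of genes called higher and lower at 3 mg/kg than in controls on day 5, by the length of genome each gene spans (kb, 7 classes), with all animals and without replicate 1 of the 3 mg/kg group. The share called lower increases from 1.82% to 10.3% across the classes with all animals, and from 0.975% to 5.45% without replicate 1.

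Animals given 1 mg/kg were killed on the same day, and 464 genes (3.97%) differed between 3 and 1 mg/kg, with 303 higher (2.59%) and 161 lower (1.38%) at 3 mg/kg. This comparison shares its 3 mg/kg animals with the one against controls. Havcr1 was 4.01 ± 0.72 higher at 3 than at 1 mg/kg (adjusted p = 0.000533), Ugt2b7 2.28 ± 0.62 (adjusted p = 0.0253), Angptl4 1.95 ± 0.40 (adjusted p = 0.00288), Fga 1.87 ± 0.32 (adjusted p = 0.000335) and Cdkn1a 1.55 ± 0.22 (adjusted p = 1.69e-05). Against saline, 3 mg/kg changed Ccng1 by 1.73 and 1 mg/kg by 0.64, and the gap of 1.09 ± 0.11 passed (adjusted p = 1.99e-09). For Phlda3 the changes were 1.38 at 3 mg/kg and 0.17 at 1 mg/kg. Among lower genes, Wwox differed by -0.94 ± 0.13 (adjusted p = 1.05e-05) and Pappa2 by -0.66 ± 0.14 (adjusted p = 0.00479). The differences between doses in Nr1d1 (0.60 ± 0.28, adjusted p = 0.235), Egr1 (1.04 ± 0.41, adjusted p = 0.138) and Ces1e (-0.28 ± 0.22, adjusted p = 0.523) did not pass. Leaving out replicate 1, 2 or 3 of the 1 mg/kg group left 209, 185 or 175 genes, and leaving out replicate 1 of the 3 mg/kg group left 183.

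The effect of 3 mg/kg on day 5 was also set against that on days 3 and 8, each against its own same-day controls. Between days 3 and 5 the effect differed for 177 genes (1.52%), with 67 more positive (0.573%) and 110 more negative (0.942%) on day 5. Spp1 changed by 2.31 on day 5 and 0.44 on day 3, a difference of 1.88 ± 0.41 (adjusted p = 0.0105). Fga changed by 1.84 on day 5 and 0.00 on day 3, a difference of 1.84 ± 0.40 (adjusted p = 0.0104). Olr1 and Kctd1, a gene of a BTB-domain protein, also had larger effects on day 5, with differences of 0.92 ± 0.23 and 0.72 ± 0.14. Chmp2b changed by -0.61 on day 5 and 0.43 on day 3, and Plcl1 by -0.64 on day 5 and 0.24 on day 3, with differences of -1.05 ± 0.16 and -0.87 ± 0.17. The controls of Chmp2b also differed between these days, with a mean signal of 152 on day 3, below every day 5 control. Cul4a, a scaffold of ubiquitin ligases, had -0.53 on day 5 and 0.39 on day 3. Dpyd was less reduced on day 5, at -0.51, than on day 3, at -1.13. The p53 targets Cdkn1a, Ccng1, Plk2 and Phlda3 did not pass for a difference between these days, with adjusted p of 0.775, 0.761, 0.513 and 0.311. On day 5 the call of Cul4a was lost without 3 mg/kg replicate 1, 2 or 3 or control replicate 2, 3, 4 or 5 (adjusted p up to 0.163). Leaving out 1 of the 20 animals left between 67 and 243 genes, the fewest without replicate 3 of the 3 mg/kg day 5 group.

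**Figure D5:**
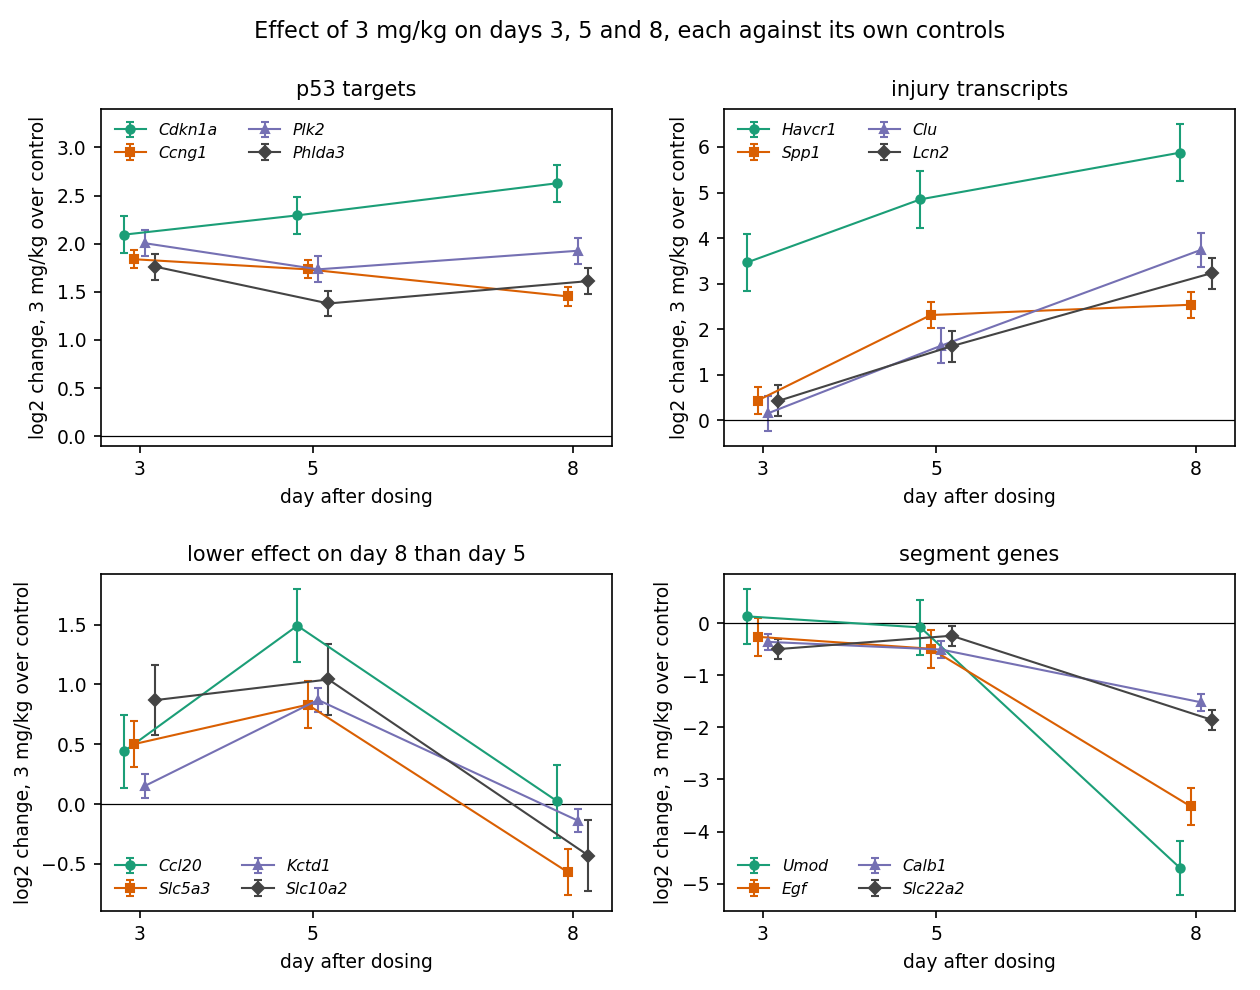
Change in log2(signal + 16) at 3 mg/kg against same-day controls on days 3, 5 and 8 for 16 genes, with bars of ± 1 standard error (5 animals per group and day). The p53 targets stay near their day 5 change on all 3 days, the injury markers are higher on day 8 for Clu and Lcn2, the genes of the third panel have a lower effect on day 8 than on day 5, and the segment genes fall far below their day 5 change on day 8.

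Between days 5 and 8 the effect differed for 1909 genes (16.3%), with 1011 more positive (8.65%) and 898 more negative (7.69%) on day 8. Clu changed by 3.74 on day 8 and 1.64 on day 5 (difference 2.10 ± 0.53, adjusted p = 0.00487), Lcn2 by 3.23 on day 8 and 1.63 on day 5 (difference 1.60 ± 0.48, adjusted p = 0.0173) and Fgb by 2.78 on day 8 and 0.92 on day 5 (difference 1.85 ± 0.36). Other genes were lower relative to controls on day 8 than on day 5. Ccl20 had 0.02 on day 8 and 1.49 on day 5, and Slc5a3, the myo-inositol transporter, had -0.57 on day 8 and 0.83 on day 5. For Kctd1 the values were -0.14 on day 8 and 0.87 on day 5, and for Slc10a2, the bile acid transporter, -0.43 on day 8 and 1.04 on day 5. The differences were -1.47 ± 0.43, -1.40 ± 0.28, -1.01 ± 0.14 and -1.47 ± 0.42, all called (adjusted p = 0.0148, 0.00039, 6.42e-06 and 0.0113). Slc10a2 lost its day 5 call without 3 mg/kg replicate 3 or control replicate 4 (adjusted p up to 0.0823).

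Several segment genes had far lower values against controls on day 8 than on day 5. Umod changed by -4.71 on day 8 and -0.08 on day 5 (adjusted p of the difference = 2.66e-05), Egf by -3.52 on day 8 and -0.49 on day 5 (adjusted p = 6.07e-05), and Slc22a2 by -1.85 on day 8 and -0.24 on day 5 (adjusted p = 7.05e-05). Slco1a1 changed by -3.58 on day 8 and -0.55 on day 5. Sbspon, a gene of a secreted matrix protein, had -2.03 on day 8 and fell by 0.50 ± 0.15 on day 5. Chmp2b, which was lower than its controls on day 5, had 0.37 on day 8, a difference of 0.98 ± 0.16 (adjusted p = 2.66e-05). Its mean control signal on day 8 was 188, below every day 5 control. Immp2l had 0.15 on day 8 and -0.68 on day 5. The day 5 call of Sbspon was lost without 3 mg/kg replicate 1 or 3 or control replicate 1 or 4 (adjusted p up to 0.0996).

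Markers of the cell types that a piece of cortex can hold were followed as lists of defining genes. Of 14 proximal tubule markers none was called in limma and 0 had an unadjusted p under 0.05, with summed signals of 37854 to 42534 at 3 mg/kg and 38392 to 41830.0 in controls. Of 6 thick ascending limb markers 1 was called, Ptger3, which rose. Their summed signals, which weigh the brightest members most, were 6585 to 7522 at 3 mg/kg, below all controls at 8279.6 to 9134. Of 4 distal convoluted and connecting tubule markers 1 was called, Calb1, which fell. These markers summed to 3792 to 4875 at 3 mg/kg, below 5438 to 6229 in controls. Of 11 endothelial markers none was called (1 at an unadjusted p under 0.05), with sums of 1973 to 2237 at 3 mg/kg, also below the 2257 to 2413 of controls. Podocyte markers summed to 1184 to 1294 at 3 mg/kg and 1075 to 1281 in controls, and principal cell markers to 3725 to 4215 at 3 mg/kg and 3751 to 4272 in controls, with 0 of 8 and 0 of 7 called and 1 of each at an unadjusted p under 0.05. The 9 fibroblast and mural cell markers had 1 riser, Tagln, and the 6 intercalated cell markers 1 faller, Atp6v1b1.

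Markers of neutrophils, lymphocytes and blood were not called in any member, and 1, 0 and 2 of them had an unadjusted p under 0.05. Neutrophil markers (3 measured) summed to 21.1 to 58.6 at 3 mg/kg and 17.1 to 38.8 in controls, and lymphocyte markers (6) to 81.0 to 109.9 at 3 mg/kg and 83.9 to 102 in controls. The beta-globin gene Hbb had 335, 1311, 1496, 1531 and 1556 at 3 mg/kg, against 918, 2292, 1430.3, 2306 and 2511 in controls, so replicate 1 of the treated animals, which led most rises, also had the lowest globin signal. The part of blood content in the values of that animal was not tested. Of 5 inner medulla markers 1 rose, Slc5a3, with 653, 333, 506, 281 and 403 at 3 mg/kg, against 211, 246, 219, 234 and 228 in controls. Of 6 genes best known from hepatocytes 1 rose, Fgb. The adrenal list had 1 measured gene and the adipocyte list 3, none of them called.

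For 3 genes, kept probe sets were called in opposite directions, with p-values adjusted over every kept probe set. Mrpl52, a mitochondrial ribosomal protein, had called changes of 0.38 and -0.65 in its 2 probe sets, Rdx, the membrane-cytoskeleton linker radixin, 0.51 and -0.36, and Cltb, a clathrin light chain, 0.31 and -0.35. The probe set that stood for the gene by signal gave 0.38 ± 0.07 for Mrpl52, -0.12 ± 0.05 for Rdx and 0.31 ± 0.06 for Cltb. No direction on day 5 is stated for these genes. Other named genes had probe sets of opposite sign without both being called, among them the podocyte gene Nphs1, whose second set was called at 0.40 while the set that stood for it gave -0.05 ± 0.15. Averaging a gene's probe sets took the calls of Cdh2 (-0.23, adjusted p = 0.0629), Psme1 (0.14, adjusted p = 0.29) and Zbtb20 (0.26, adjusted p = 0.0637). It left smaller, called changes of 1.20 for Fga, 0.59 for Srxn1, 0.54 for Nrg1, -0.48 for Ppard, -0.53 for Pappa2 and -0.37 for Epha4. In the fit of these 10 arrays alone Hmox1, Myc, Erbb3, Ccl2, Psmb10 and Ei24 lost their calls (adjusted p = 0.0512 to 0.0605), as did Abcc1 (adjusted p = 0.08). Without the offset Akr1b8, Ect2, Aurkb and Slc10a2 did (adjusted p = 0.0516 to 0.0689), with an offset of 64 Cldn4, Myc, Nbea and Tnc (adjusted p = 0.0509 to 0.0647), and without the filter Myc, Nbea, Tnc and Ei24 (adjusted p = 0.0507 to 0.0559).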

How the data were processed

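Kidney RNA of 57 rats was measured on Affymetrix Rat 230 2.0 arrays, 1 biotin-labelled sample per array. The deposited values are intensity values on a linear scale, 1 per probe set and array, and the submitters' processing notes name MAS5 as the tool behind them. No source used here gives its version or settings. Every array had a mean of 99.99 over probe sets after trimming the lowest and highest 2%, so the authors' scaling fixes each array to a common level. The table holds 31099 probe sets, of which 57 controls were left out.

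Deposited signals were turned into log2(signal + 16), which shrinks the changes of dim genes. Probe sets above the 40th percentile of their array on at least 3 arrays were kept (21829), and the probe set with the highest mean stood for each of 11683 genes. Of the probe sets, 20826 had 1 gene symbol, 436 several and 9780 none in the platform annotation, updated through Entrez numbers with the GRCr8 RefSeq gene table. Probe sets with several symbols name no gene. Group means were fitted over all 57 arrays in 12 groups with limma 3.58.1 in R 4.3.3 (moderated variances with an intensity trend), two-sided, with Benjamini-Hochberg adjustment within each contrast. The pooled error is too large for genes that vary less in these 10 arrays than elsewhere, and too small for those that vary more. Array quality was compared with exact permutation tests. Tables and figures used Python 3.11.15. The fit was tested on simulated data with known changes. The number of arrays limits the precision.

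The members and gene lists were chosen with earlier results of these data known. Genes were named by a rule: the 20 largest rises and falls without overlap between the groups, up to 8 called members of each list (the 2 largest changes where none was called), 32 genes whatever their result, up to 8 differences in each direction from the lower dose and between days, the 8 called genes with the largest spread at 3 mg/kg, and up to 6 genes whose probe sets disagree. Bax, 1 of the 32, had no probe set with a single symbol and is not reported. Cd44, Cdh2, Cldn2, Cldn7, Csf1, Ei24, Gadd45a, Lgals3, Nfe2l2, Rgn, Txnrd1 and Vim were named after their values were seen.

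Samples were grouped by their titles, with 5 arrays per group except 3 at 1 mg/kg on day 5 and 4 controls on day 26. The labels call the arrays biological replicates. Alternatives covered the offset, the normalization, the filter, the choice of probe set, the variance model, array weights, fits of the compared groups alone, the replicate number as a block and leaving out each array in turn.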

Additional observations from a re-analysis of the deposited data

Results flagged for a closer look

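Of 296 groups of 5 animals examined among the named genes, 21 held an animal whose signal lay apart from the other 4 (its gap to the nearest of them, over the range of the group, above Dixon's 95% critical value of 0.710). Chance gives about 1 in 20 such groups. Among 3 mg/kg animals, Plk2 had 104 in 3 mg/kg replicate 2 (others 129 to 134), and Cldn2 had 682 in 3 mg/kg replicate 4 (others 562 to 581). Ces1e had 16.7 in 3 mg/kg replicate 1 (others 30.7 to 36.4), and Cldn14 had 25.3 in 3 mg/kg replicate 1 (others 12.8 to 14.3). Sfrp2 had 51.8 in 3 mg/kg replicate 1 (others 117 to 142), and Wwox had 12.4 in 3 mg/kg replicate 3 (others 16.1 to 17.4). Chmp2b had 179 in 3 mg/kg replicate 2 (others 155 to 159), and Kctd1 had 269 in 3 mg/kg replicate 4 (others 308 to 319). Mrpl52 had 263 in 3 mg/kg replicate 4 (others 308 to 325), and Hbb had 335 in 3 mg/kg replicate 1 (others 1311 to 1556). Among controls, Timp1 had 32.1 in control replicate 2 (others 63.3 to 74.7), and Mt2A had 3523 in control replicate 5 (others 2465 to 2655). Cebpd had 111 in control replicate 5 (others 45.8 to 53.3), and Slc34a2 had 65.2 in control replicate 2 (others 50.6 to 53.8). Afmid had 458 in control replicate 5 (others 597 to 651), and Nrep had 1452 in control replicate 3 (others 884 to 969). Capn6 had 54.5 in control replicate 3 (others 37.7 to 41.6), and Slc10a2 had 6.06 in control replicate 4 (others 24.4 to 31.0). Rdx had 566 in control replicate 4 (others 618 to 633), and Cltb had 186 in control replicate 4 (others 155 to 163). Slc7a13 had 1986 in control replicate 1 (others 2732 to 3047).

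The effect of 3 mg/kg differed between days for 51 named genes by the test of the difference itself, in limma with adjusted p-values under 0.05. Relative to day 3, the effect on day 5 was more positive for Spp1 (1.88), Fga (1.84), Olr1 (0.92), Kctd1 (0.72), Dpyd (0.63) and Txnrd1 (0.48), on the log2 scale, and more negative for Chmp2b (-1.05), Cul4a (-0.92) and Plcl1 (-0.87). On day 8, relative to day 5, the effect was more positive for Clu (2.10), Fgb (1.85), Lcn2 (1.60), S100a6 (1.5), Timp1 (1.46), Srxn1 (1.23) and Cldn4 (1.21). More positive by less were Cul4a (1.13), Tnfrsf12a (1.03), Chmp2b (0.98), Nrg1 (0.98), Myc (0.96), Ces1e (0.95) and Tnc (0.91). The remaining positive differences were in Lgals3 (0.89), Immp2l (0.83), Nqo1 (0.79), Ephx1 (0.77), S100a11 (0.69), Csf1 (0.55) and Bbc3 (0.42). The effect was more negative on day 8 for Umod (-4.63), Slco1a6 (-3.18), Slco1a1 (-3.03), Egf (-3.03), Kap (-2.58), Slc7a13 (-2.25), Slc12a1 (-2.22) and Slc22a2 (-1.61). Smaller negative differences were in Sbspon (-1.53), Slc10a2 (-1.47), Ccl20 (-1.47), Sfrp2 (-1.46), Gclc (-1.40), Slc5a3 (-1.40), Calb1 (-1.01) and Kctd1 (-1.01). The remaining negative differences were in Aqp2 (-1.0), Nrep (-0.97), Areg (-0.93), Rasd1 (-0.84), Ptger3 (-0.81), Capn6 (-0.63), Atp6v1b1 (-0.57) and Cltb (-0.40). The Cltb value is that of the probe set that stood for it, and its 2 probe sets were called in opposite directions on day 5.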

How the results depend on the processing

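Between 3 mg/kg and control on day 5, the count of 1028 stayed between 980 and 1458 under all 13 alternatives that kept every array (1384 with array weights, 1062 in the fit of the 10 arrays alone, of which 785 were among the 1028). Leaving out 1 array gave 547 to 1096, the lowest without replicate 1 of the 3 mg/kg group. For 3 against 1 mg/kg the 464 became 183 in the fit of the compared groups alone, and 175 to 467 when 1 array was left out. For the difference between days 3 and 5 the 177 became 381 with array weights and 67 to 243 when 1 array was left out. Leaving out single arrays took it under 118 without control replicate 3 (102) or 5 (83) of day 3, control replicate 2 (87), 3 (87) or 4 (83) of day 5, 3 mg/kg replicate 1 (90) or 3 (108) of day 3, or 3 mg/kg replicate 1 (104), 2 (97) or 3 (67) of day 5. Between days 5 and 8 the 1909 became 1088 when only those groups entered the fit, 2888 over every kept probe set, where more features were tested, and 1519 to 2425 when 1 array was left out. Apart from these constructions the cause was not tested.

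Of 125 called genes named, 75 kept direction and call throughout, 45 lost the call without at least 1 array and 25 under at least 1 other alternative. Genes with changes near 0 turned sign: Gclc (-0.0668 to 0.0201 when 1 array was left out) to 0.0161 and 0.0201 without control replicate 5 or 3 mg/kg replicate 1, Kap to -0.0095 under quantile normalization and -0.0067 without 3 mg/kg replicate 3 (-0.0067 to 0.0677 when 1 array was left out), Nphs1 to 0.1742 with its probe sets averaged and 0.0258, 0.0022 and 0.033 without control replicate 3 or 4 or 3 mg/kg replicate 2 (-0.1231 to 0.033), and Pecam1 to 0.0204 without control replicate 5 (-0.1417 to 0.0204). With probe sets averaged per gene, Mrpl52 became -0.1338, Rdx 0.0257 and Cltb -0.0216, none of them called. Same-numbered animals deviated from their group means with correlations of 0.01 to 0.21, of which 2 of 5 exceeded 0.1. The labels do not say whether a number links animals across groups, and such a link was not tested. With the number as a block (replicate block) the 4 counts were 1081, 562, 181 and 1972, and 3 of 5 treated arrays correlated best with the control of their own number. Array signal limits dim genes such as Havcr1 in controls, Fosl1, Cldn14 and Wwox, whose changes depend on the offset.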

Other observations

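Genes outside the groups described above gave values worth recording. Afmid, a formamidase of tryptophan breakdown in the proximal tubule, had 385, 481, 249, 461 and 509 at 3 mg/kg, against 597, 616, 651, 627 and 458 in controls. Control replicate 5 lay among the treated animals, and the change was -0.52 ± 0.12 (adjusted p = 0.00307). Its call was lost in the fit of these 10 arrays alone (adjusted p = 0.0577) and with its 3 probe sets averaged (-0.29, adjusted p = 0.104). Tyrobp, a signalling adaptor of myeloid cells, had 156, 112, 109, 88.6 and 87.3 at 3 mg/kg, against 86.2, 83.9, 87.7, 67.2 and 78.9 in controls. Replicates 1, 2, 3 and 4 lay above every control, and the change did not pass (0.37 ± 0.15, adjusted p = 0.126). Cd68, a lysosomal protein of macrophages, had 72.5, 40.6, 63.0, 50.9 and 55.8 at 3 mg/kg, against 31.9, 50.8, 38.8, 54.9 and 39.5 in controls, and the groups overlapped (0.29 ± 0.14, adjusted p = 0.199). Emcn, endomucin of endothelial cells, had 279.6, 352, 381, 408 and 426 at 3 mg/kg, against 471, 479, 439, 358 and 501 in controls, with overlap (-0.28 ± 0.10, adjusted p = 0.0686). The phosphate, albumin and organic anion handling genes of the proximal tubule gave values near 0: 0.07 ± 0.08 for Slc34a1, -0.10 ± 0.07 for Lrp2, which encodes megalin, and 0.11 ± 0.09 for Slc22a6.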
